A study of Mus musculus with 6 samples.

Results

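Complex I (NADH:ubiquinone oxidoreductase) is the largest enzyme of the mitochondrial respiratory chain. Its genes were examined here in inguinal white adipose tissue (iWAT) of mice in the cold and at thermoneutrality. The members were taken by name, as every gene whose symbol is Nduf, then a, b, c, s or v, then a number, which is how the nuclear subunits are named in the mouse. The pattern took 37 of the 22564 genes in the table. Of these, 35 are established subunits of the complex. Ndufa4 and Ndufa4l2 carry the name only: Ndufa4 is now counted as a subunit of cytochrome c oxidase, and Ndufa4l2 is its paralog, which is induced by hypoxia. A pair of nuclear subunits falls outside the set. Ndufab1, the mitochondrial acyl carrier protein, has another form of name and is described separately. Ndufb1 fits the pattern, but no gene in the table carries that symbol.

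Complex I is L-shaped. Its arm in the mitochondrial matrix takes electrons from NADH at a flavin in the N module and passes them along iron-sulfur clusters to ubiquinone at the Q module, while the arm in the inner membrane pumps protons. The membrane arm is put together from a proximal part around the mitochondrially encoded subunits ND1 and ND2 and a distal part around ND4 and ND5. Most nuclear subunits are accessory proteins around a small catalytic core, and brown and beige adipocytes, which burn fuel for heat, are rich in mitochondria and in this complex.

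The cold group was 3 iWAT samples of C57BL/6 mice kept at 4 °C for 7 days, and the thermoneutral group was 3 iWAT samples of the same strain kept at 30 °C for 7 days. The study describes males of 2 months and gives the substrain as C57BL/6J, and the labels name no transgene, drug or diet for either group. Whether a sample is 1 mouse or a pool of mice is not given in the sources used here, so the p-values measure the spread between these samples only, which may be in part technical. Messenger RNA was measured by RNA-seq of whole tissue, although the source label reads adipocytes. In such bulk samples, more cells of a type and more RNA per cell cannot be told apart.

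Levels are given as scaled counts, the deposited fragment counts after a scaling by the authors, or as FPKM (fragments relative to transcript length and library size), which is the scale for comparing genes of different length. An estimated 15262101 to 16936411 fragments stood behind the cold samples and 18894392 to 23636795 behind the thermoneutral samples. Cold was compared with thermoneutral by limma, run on log2-transformed scaled counts (1 added to each) of 11629 genes, and a gene was called at a Benjamini-Hochberg adjusted p under 0.05. All 37 members passed the filter on low values, an FPKM of 1 or more in 3 or more samples. On this scale the median log2 change (cold over thermoneutral) of the tested genes was -0.54. Over all tested genes 727 were called higher and 4097 lower in cold, and when each sample was centred on its median gene these counts were 1202 and 629.

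The genes of complex I were higher in cold almost throughout. Of the 37 members, 33 rose in cold and none fell (limma, adjusted p under 0.05). The background for a rise was 6.25% of all tested genes, and for a fall it was 35.2%. Without adjustment, 35 members were higher and 0 lower at a p under 0.05, against 888 and 5417 of the 11629 tested genes. The members had a median log2 change of 1.30, beside -0.54 for all tested genes, and centring on the median gene put the members' median at 1.84. The median over all tested genes differed with transcript length, as given further on. The members are short, so -0.54 is not matched to them for length. At the thresholds given in the study's methods, a p under 0.05 and a fold of 2 or more, 29 members were higher, against 4.21% of tested genes.

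**Figure D1:**
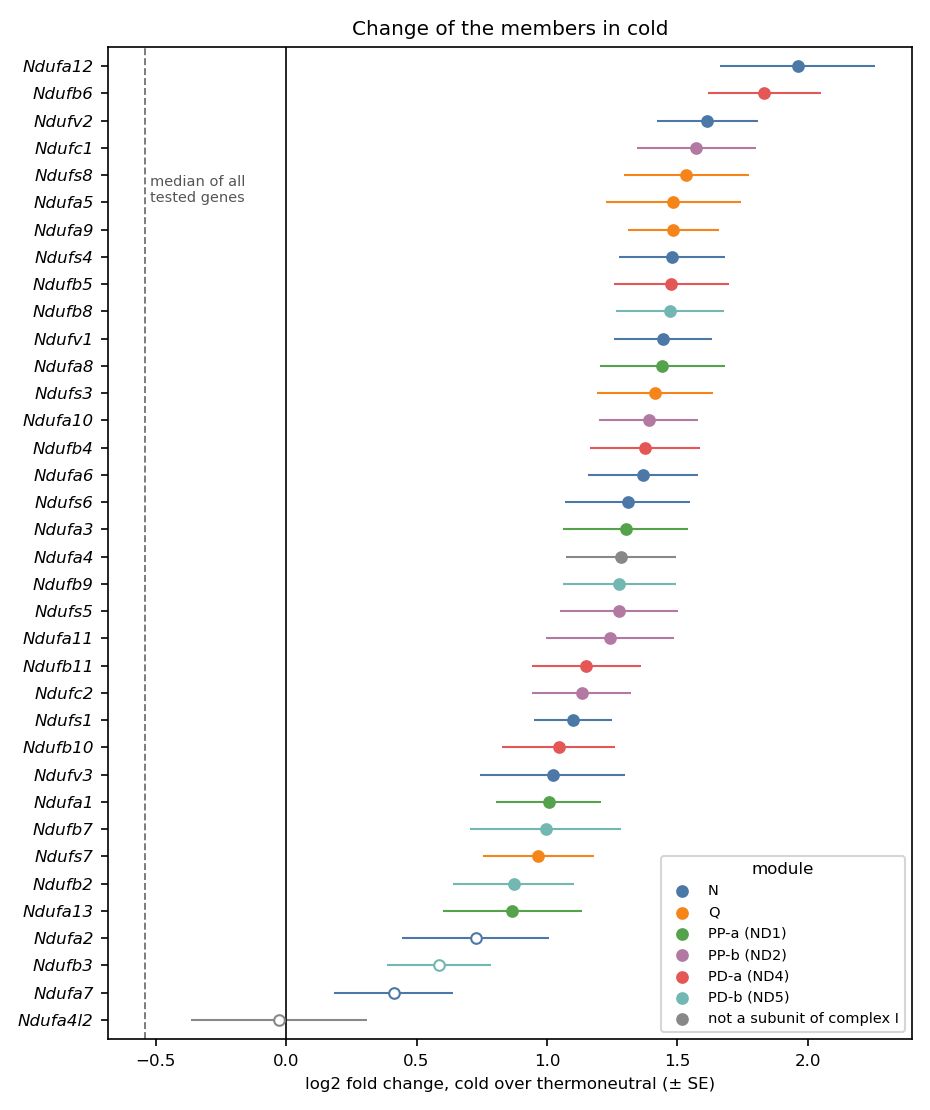
Log2 fold change (cold over thermoneutral, horizontal axis) of 36 of the 37 members with its standard error from limma, coloured by module. Filled points were called at an adjusted p under 0.05 and open points were not, and the dashed line is the median of all tested genes, at -0.54. All members shown except Ndufa4l2 lie to the right of 0, and the called ones lie between 0.87 and 1.96.

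The separation between the groups was complete for nearly every member. In 36 of 37 members all 3 cold samples stood above all 3 thermoneutral samples, an arrangement found in 9.1% of tested genes. The exception was Ndufa4l2. With 3 samples against 3, an exact permutation test of a single gene cannot give a p below 0.1, so single genes rest on the limma fit. Summed over the 37 members, the scaled counts made up 1.67%, 1.16% and 1.15% of all scaled counts in the cold samples, against 0.455%, 0.512% and 0.494% in the thermoneutral samples.

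**Figure D2:**
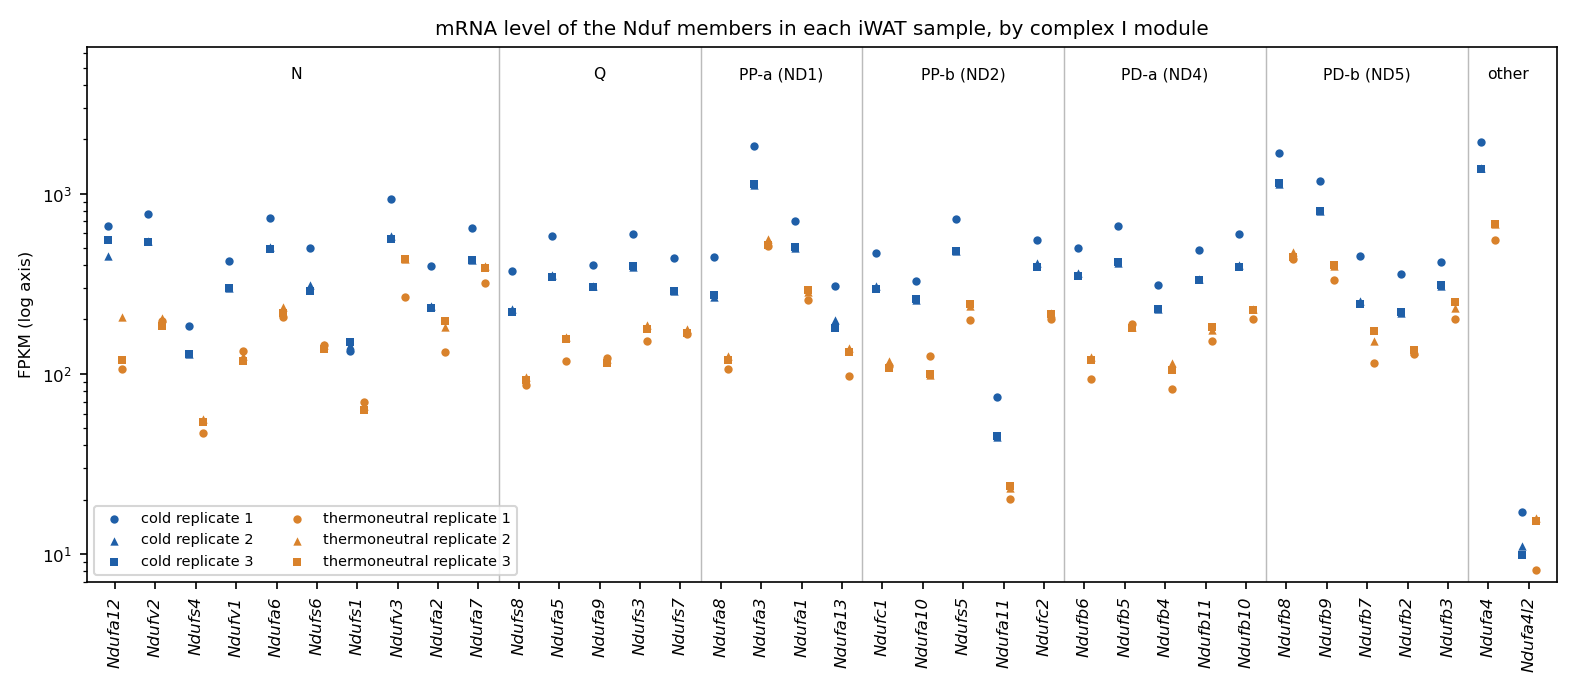
FPKM (log axis) of 36 of the 37 members in the 3 cold samples (blue, left) and the 3 thermoneutral samples (orange, right), with a different marker for each replicate and the members grouped by module and ordered by their change. Cold replicate 1 is the highest sample for 35 of the 36 members shown, and the blue and orange points overlap only for Ndufa4l2.

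The cold samples were not alike. Cold replicate 1 stood above cold replicates 2 and 3 for 36 of 37 members, by a median of 0.60 on the log2 scale, while cold replicates 2 and 3 differed by a median of 0.01. Ndufs1 was the exception, with cold replicate 1 0.15 below the others. Thermoneutral replicate 1 was the lowest of all 6 samples for 28 members, with a median of -0.22 against thermoneutral replicates 2 and 3. Leaving out cold replicate 1 gave 30 members higher and a median log2 change of 1.11, and leaving out thermoneutral replicate 1 gave 31 and 1.24. Over all tested genes, 585 and 932 were higher in these settings. Without both samples, 34 members were higher and 1, Ndufa4l2, was lower, with a median of 1.07. The counts over all tested genes for that setting are given further on.

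Transcript length moved with the position of cold replicate 1 and with the change in cold. Among all tested genes, cold replicate 1 was 0.59 above the other cold samples (median, log2) for transcripts of up to 800 bases and -0.51 relative to them for transcripts over 5000 bases. The members are short: the longest annotated transcript had a median of 934 bases, and 33 of 37 members had one of 2000 bases or less. In the length classes up to 2000 bases, from short to long, all tested genes had median log2 changes of 0.007, -0.20 and -0.36. The members in the same classes had medians of 1.205, 1.414 and 1.463. For all tested genes over 5000 bases the median was -0.78. When every sample was centred within 6 classes of transcript length, a check chosen after seeing the data, 33 members were higher in cold and the median was 1.38. Centring on the median gene without length classes gave 35 members and 1.84, so the classes lowered both. The part of RNA quality or library preparation in this pattern was not tested.

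**Figure D3:**
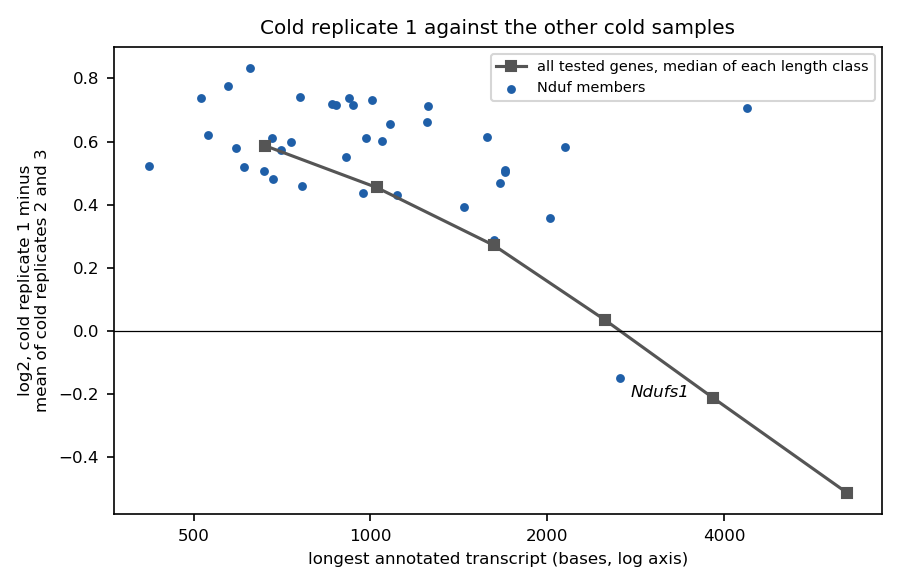
Log2 difference between cold replicate 1 and the mean of cold replicates 2 and 3 (vertical axis) against the longest annotated transcript in bases (log axis), for the 37 members (blue points) and as the median of each length class over all tested genes (grey squares). The grey line falls from 0.59 in the shortest class to -0.51 in the longest, and Ndufs1 is the only member below 0.

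Markers of several other cell types moved with the groups. Over all tested genes, 6.25% were called higher and 35.2% lower. Thermogenic adipocyte markers were called higher in 7 of 7 cases, among them Ucp1 at a log2 change of 9.46. Fibroblast and preadipocyte markers were called lower in 8 of 8 cases and made up 0.190% to 0.205% of the scaled counts in cold samples and 0.431% to 0.915% in thermoneutral samples. Macrophage markers were also lower in 8 of 8 cases, at 0.0318% to 0.0506% in cold and 0.0785% to 0.126% in thermoneutral samples. Skeletal muscle markers took 1.33% of the counts of cold replicate 2, while cold replicates 1 and 3 had 0.00199% and 0.00227% and thermoneutral samples 0.0181% to 0.0570%. For the members, cold replicate 2 over cold replicate 3 had a median of 0.01 on the log2 scale, with a range of -0.26 to 0.17. Without cold replicate 2, 30 members were higher with a median of 1.37. In that setting 498 of all tested genes were higher. Adipocyte markers were called lower in 3 of 8 cases and higher in 0 (0 also at an unadjusted p under 0.05). This is near the background for a lower call, and their median log2 change of -0.46 was near that of all tested genes, -0.54. No marker in these lists was at 0 in all samples. Endothelial markers were called lower in 1 of 5 cases and higher in 0 (0 also at an unadjusted p under 0.05), with a median log2 change of -0.05. The part of the other cell types in the rise of the members was not tested.

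The catalytic core has 7 nuclear subunits, and all 7 rose in cold, with a median log2 change of 1.41. Ndufv1, which binds the flavin and oxidises NADH (chromosome 19, 4007384 to 4012806, GRCm38), had 13568, 9803 and 9793 scaled counts in cold samples and 4203, 4035 and 3798 in thermoneutral samples. Its log2 change was 1.45 (SE 0.19, limma adjusted p = 0.0058). The groups were far apart, with cold replicate 1 the highest.

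Ndufv2, the partner of Ndufv1 that carries an iron-sulfur cluster beside the flavin (chromosome 17, 66078638 to 66101559), had 14693, 10371 and 10335 scaled counts in cold and 3791, 3993 and 3617 in thermoneutral samples. This was the largest change in the core, at 1.62 (SE 0.19, limma adjusted p = 0.0048). Ndufs1, the large subunit whose iron-sulfur clusters lead electrons out of the N module (chromosome 1, 63143596 to 63176833), had 7587, 8265 and 8577 scaled counts in cold and 3985, 3785 and 3625 in thermoneutral samples. It changed by 1.10 (SE 0.15, limma adjusted p = 0.0063), with the smallest standard error of any member and a spread among the cold samples that ran opposite to that of the other members.

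At the ubiquinone end, Ndufs7, which holds the last iron-sulfur cluster before ubiquinone (chromosome 10, 80249121 to 80256794), had 5872, 3857 and 3828 scaled counts in cold and 2193, 2361 and 2242 in thermoneutral samples. Ndufs7 had the smallest change of the core, 0.97 (SE 0.21, limma adjusted p = 0.017), and was no longer called when thermoneutral replicate 2 or 3 was left out.

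Ndufs3, a scaffold of the Q module and an early piece of its assembly (chromosome 2, 90894634 to 90904827), had 11648, 7633 and 7706 scaled counts in cold and 2922, 3630 and 3414 in thermoneutral samples. Ndufs8, which carries a pair of iron-sulfur clusters on the way to ubiquinone (chromosome 19, 3908863 to 3912774), had 6675, 4122 and 3920 in cold and 1544, 1719 and 1670 in thermoneutral samples. Both groups were well apart for these genes, at 1.41 for Ndufs3 (limma adjusted p = 0.0084) and 1.53 for Ndufs8 (limma adjusted p = 0.0083).

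The rise was found in all 6 modules of the complex. In the N module 8 of 10 tested members rose, with a median log2 change of 1.34, and in the Q module 6 of 6 rose, with a median of 1.45. Around ND1 4 of 4 rose (median 1.15) and around ND2 5 of 5 (median 1.28). In the distal membrane arm 5 of 5 rose around ND4 (median 1.38) and 4 of 5 around ND5 (median 1.00). The ranges of all 6 modules overlapped, and the difference between modules was not tested.

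The largest change of all fell in the N module, in Ndufa12, an accessory subunit that sits where the assembly factor Ndufaf2, its paralog, is bound before the complex is finished. Ndufa12 (chromosome 10, 94198720 to 94221443) had 6133, 4151 and 4986 scaled counts in cold and 990, 1932 and 1120 in thermoneutral samples. Its change was 1.96 (SE 0.30, limma adjusted p = 0.0080). The groups stood apart, but thermoneutral replicate 2 was well above the other thermoneutral samples.

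Second came Ndufb6, an accessory subunit of the ND4 part (chromosome 4, 40270591 to 40279421), with 5583, 4004 and 3854 scaled counts in cold and 1035, 1373 and 1336 in thermoneutral samples. It changed by 1.83 (SE 0.22, limma adjusted p = 0.0047). Ndufc1, a small accessory subunit of the ND2 part (chromosome 3, 51404677 to 51408988), had 4767, 3052 and 2968 in cold and 1092, 1282 and 1170 in thermoneutral samples, a change of 1.57 (SE 0.23, limma adjusted p = 0.0072). Together with Ndufv2 these are the 4 largest changes, and they belong to 3 modules.

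Of the other accessory subunits of the matrix arm, Ndufa6, Ndufs4, Ndufs6 and Ndufv3 in the N module and Ndufa5 and Ndufa9 in the Q module were called higher, while Ndufa2 and Ndufa7 in the N module, given further on, were not. Ndufs4, whose loss causes the mitochondrial disease Leigh syndrome in people, changed by 1.48, and Ndufs6, which binds zinc, by 1.31. Ndufa9, an enzyme-like subunit that binds a nucleotide, changed by 1.49. Ndufv3 was called at 1.02 (SE 0.28, limma adjusted p = 0.030) with thermoneutral replicate 1, at 2514 scaled counts, well below the other thermoneutral samples at 4093 and 4042, and its call was lost when any 1 sample other than thermoneutral replicate 1 was left out.

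In the proximal membrane arm, Ndufa1, Ndufa3, Ndufa8 and Ndufa13 of the ND1 part changed by 0.87 to 1.44, and Ndufa10, Ndufa11, Ndufc2 and Ndufs5 of the ND2 part, beside Ndufc1, by 1.13 to 1.39. Ndufa13, also known as the cell death regulator GRIM-19, was at the low end, at 0.87 (SE 0.27, limma adjusted p = 0.042), with 7468, 4799 and 4319 scaled counts in cold and 2342, 3387 and 3210 in thermoneutral samples. Its call did not survive leaving out any 1 of the 6 samples. Ndufa1, a single-pass membrane subunit encoded on the X chromosome, changed by 1.01 and lost its call without thermoneutral replicate 2 or 3.

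In the distal membrane arm, Ndufb4, Ndufb5, Ndufb10 and Ndufb11 of the ND4 part, beside Ndufb6, changed by 1.04 to 1.48. Ndufb8 and Ndufb9 of the ND5 part changed by 1.47 and 1.28; Ndufb9 is a partner of the acyl carrier protein, and the Ndufb8 protein is often probed on blots as a marker of assembled complex I. Ndufb2 and Ndufb7, of the same part, were lower in the order at 0.87 and 1.00. The call of Ndufb7 was lost without any 1 of the 6 samples, that of Ndufb2 without cold replicate 3 or thermoneutral replicate 2 or 3, and that of Ndufb10 without thermoneutral replicate 2 or 3. Without the filter on low values, 29 members and 646 of all genes were called higher. The member calls lost were those of Ndufa13, Ndufb2, Ndufb7 and Ndufv3.

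The 4 members not called included 3 subunits. Ndufa7, an accessory subunit of the N module, had 5034, 3285 and 3257 scaled counts in cold and 2465, 3060 and 3029 in thermoneutral samples, a log2 difference of 0.41 (SE 0.23, limma adjusted p = 0.18). Cold replicates 2 and 3 were barely above thermoneutral replicates 2 and 3, and Ndufa7 was called under none of the alternatives tried. Ndufb3, of the ND5 part, had 5670, 4098 and 4147 in cold and 2694, 3140 and 3366 in thermoneutral samples, a log2 difference of 0.59 (SE 0.20, limma adjusted p = 0.053) just outside the threshold. Under 6 of the 16 alternatives it was called.

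Ndufa2, an N-module subunit with a fold like that of thioredoxin, had 3642, 2167 and 2086 scaled counts in cold and 1205, 1672 and 1803 in thermoneutral samples. Its log2 difference was 0.73 (SE 0.28, limma adjusted p = 0.077), and it was called when samples were centred on their median gene or quantile-normalized. For all 3 subunits the groups did not overlap.

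The name-only genes went separate ways. Ndufa4 was the most abundant member, at 1940, 1382 and 1371 FPKM in cold and 551, 675 and 674 FPKM in thermoneutral samples, and rose by 1.28 (SE 0.21, limma adjusted p = 0.0092). Ndufa4l2, which in cultured cells restrains complex I under hypoxia, was the least abundant, at 17.1, 11.1 and 9.85 FPKM in cold and 8.17, 15.9 and 15.1 FPKM in thermoneutral samples. Its groups overlapped, and its log2 difference was -0.03 (SE 0.34, limma adjusted p = 0.95). The sign of this difference turned under several scalings, at 0.51 with median centring and 0.58 with quantile normalization, and without cold replicate 1 and thermoneutral replicate 1 together it was called lower in cold, at -0.58.

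**Figure D4:**
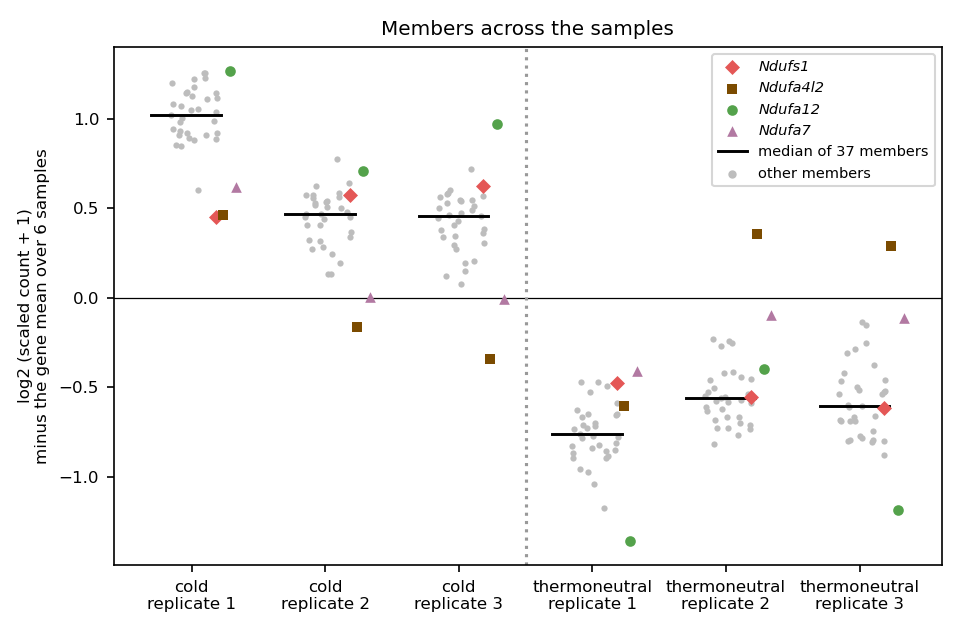
Log2 of the scaled count plus 1, minus the mean of that gene over the 6 samples (vertical axis), for every member in each cold sample (left) and each thermoneutral sample (right). Grey points are the other members, black lines the median of all 37, and coloured markers 4 named members: Ndufs1 is the one member not highest in cold replicate 1, Ndufa4l2 overlaps between the groups, Ndufa12 spreads among the thermoneutral samples and Ndufa7 changes little.

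To ask which members departed from the shared change, the per-sample median of the members was subtracted from every gene before the fit. This median itself was 1.13 higher in cold on the log2 scale. Relative to it, Ndufa12 was higher by 0.83 (limma adjusted p = 0.031) and Ndufb6 by 0.70 (limma adjusted p = 0.025), so 2 of 37 members were called higher, against 1.28% of tested genes. Ndufa4l2 was lower, at -1.16 (limma adjusted p = 0.0089), and Ndufa7 was lower, at -0.72 (limma adjusted p = 0.019), so 2 members were called lower, against 86.9% of tested genes. As the members' own rise was subtracted from every gene, most other genes came out lower by construction. These 2 shares are therefore no background for departures of members from their own median. The other 33 members were not called, with values of -0.55 to 0.48.

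The number of relative calls changed when a sample was left out, which also leaves fewer samples for the fit. The count of members called relatively higher was 7 without cold replicate 1, 1 without thermoneutral replicate 2 and 0 without cold replicate 2, cold replicate 3, thermoneutral replicate 1 or thermoneutral replicate 3. The relatively lower call of Ndufa4l2 was made whichever sample was left out, and that of Ndufa7 was lost without cold replicate 3 or thermoneutral replicate 2 or 3. No share of all tested genes is set beside these counts, so they describe only how the members' own calls shifted.

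The order of the subunits by level was much the same in both groups. Over the 35 established subunits FPKM ran from 54.7 to 1354 in cold and from 22.5 to 530 in thermoneutral samples, with medians of 383 and 170. The highest subunit was Ndufa3, a small protein of the ND1 part, at 1354 ± 408 FPKM in cold and 530 ± 28.0 FPKM in thermoneutral samples (SD, n = 3 each). Ndufb8 came next, at 1317 ± 320 FPKM in cold and 451 ± 20.9 FPKM in thermoneutral samples, within the spread of Ndufa3 in cold.

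The lowest subunit by FPKM was Ndufa11, of the ND2 part, at 54.7 ± 17.2 FPKM in cold and 22.5 ± 2.04 FPKM in thermoneutral samples. Ndufs4 and Ndufs1 followed, at 147 ± 31.3 and 143 ± 8.57 FPKM in cold and 52.0 ± 4.76 and 66.5 ± 3.17 FPKM in thermoneutral samples, so the order of these neighbours in cold is within their spread. Across the 35 subunits the Spearman correlation of the mean FPKM between cold and thermoneutral samples was 0.86, a description over genes that share the same libraries and transcript lengths. FPKM depends on the transcript assigned to each gene, and the table's intervals ran more than 5000 bases past the annotated gene for 11 members. Ndufs7, at 664659 bases, and Ndufs3, at 233083, ran furthest, and Ndufs1, Ndufb8 and Ndufa13 were among the rest. The 11 members with wide intervals had a median log2 change of 1.10 with 9 called, and the other 26 had 1.31 with 24 called. Ndufa11, among the 26, was not the lowest subunit by scaled counts, at a mean of 3078 in cold against 1858 for Ndufb2. Ndufa8, with a longest transcript of 861 bases against 918 for Ndufa11, had means of 5132 scaled counts and 328 FPKM in cold. The lengths behind these FPKM values were not examined.

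Ndufab1, the acyl carrier protein that is built into the complex and also serves mitochondrial fatty acid synthesis, moved with the members. It had 10715, 7863 and 8440 scaled counts in cold and 2818, 3175 and 2913 in thermoneutral samples, a log2 change of 1.59 (SE 0.18, limma adjusted p = 0.0042).

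Of the 7 subunits encoded in mitochondrial DNA, only mt-Nd1 and mt-Nd2 gave values that could be compared. mt-Nd1 had 470492, 726680 and 733944 scaled counts in cold and 159674, 157145 and 180364 in thermoneutral samples, a log2 change of 1.93 (SE 0.22, limma adjusted p = 0.0043). For mt-Nd2 the change was 1.74 (SE 0.32, limma adjusted p = 0.012). For both genes cold replicate 1 was the lowest cold sample, whereas it was the highest for the nuclear members. No fold is given for the remaining 5: the table lists mt-Nd5 and mt-Nd6 at 0 in the cold samples and mt-Nd3, mt-Nd4 and mt-Nd4l at 0 in all 6 samples.

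The factors that assemble complex I without staying in it had smaller values. Of 15 tested, 7 rose and none fell (8 higher and 0 lower at an unadjusted p under 0.05), with a median log2 change of 0.52. Ndufaf4 had the largest change, with 1342, 1305 and 1349 scaled counts in cold and 627, 523 and 430 in thermoneutral samples, at 1.35 (SE 0.19, limma adjusted p = 0.0063). Ndufaf1 and Foxred1 were called at 0.78 and 0.93. Ndufaf2, whose place Ndufa12 takes, was not called, at 0.52 (SE 0.23, limma adjusted p = 0.11). Acad9, which also acts as an acyl-CoA dehydrogenase, was not called, with 1363, 1562 and 1620 scaled counts in cold and 9469, 1427 and 1541 in thermoneutral samples, so that thermoneutral replicate 1 alone was high. With median centring or quantile normalization 11 of the 15 factors were called higher.

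The other respiratory complexes rose beside complex I. In complex II 4 of 4 tested subunits were higher (median log2 change 1.47) and in complex III 9 of 9 (median 1.67). In complex IV 12 of 15 were higher (median 1.33), with Cox7a1 and Cox8b, the isoforms of heart and brown fat, at 6.27 and 3.84. In complex V 11 of 15 were higher (median 1.18). Markers of mitochondrial mass, such as outer membrane channels and import proteins, were called in 6 of 12 cases, with a median of 0.66. Citrate synthase, Cs, was at the top of them at 1.39, close to the median of the complex I core, and Tomm20 was not called, at 0.07 (limma adjusted p = 0.70). Each list is described beside the background of 6.25%, and the differences between lists were not tested.

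**Figure D5:**
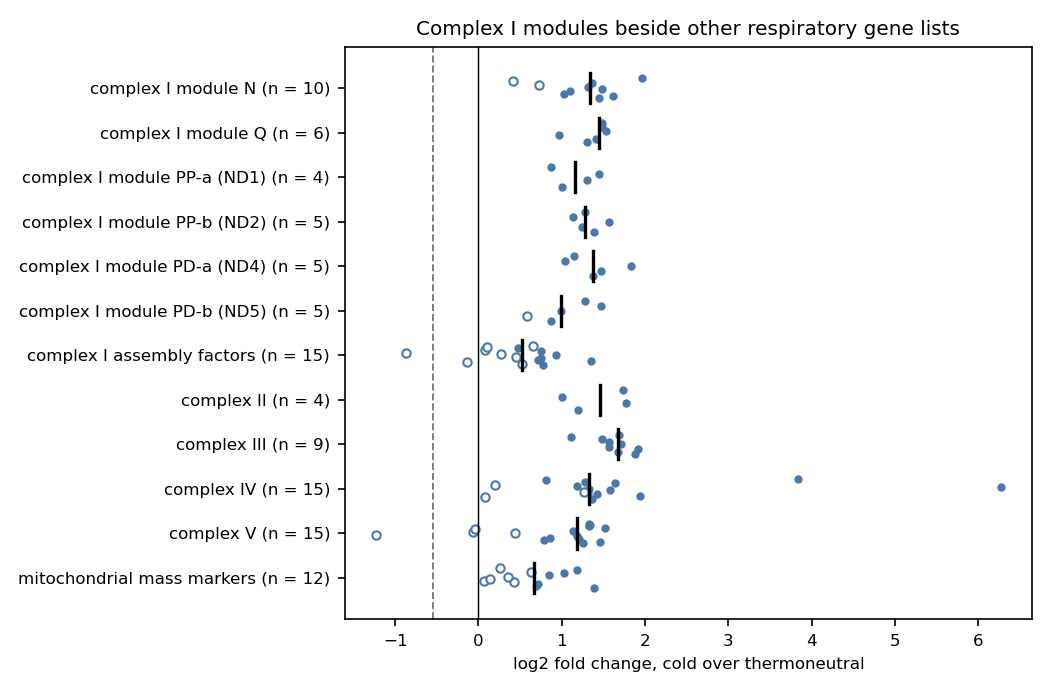
Log2 fold change (cold over thermoneutral, horizontal axis) of the tested genes in each complex I module and in 6 other lists of respiratory and mitochondrial genes; filled points were called at an adjusted p under 0.05 and open points were not. Short black bars are list medians, which run from 1.00 to 1.45 over the complex I modules, with 0.52 for the assembly factors and 0.66 for the mitochondrial mass markers, and the dashed line is the median of all tested genes at -0.54.

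Other entries to the ubiquinone pool were called higher in 4 of 7 cases. These were Gpd2, the mitochondrial glycerol 3-phosphate dehydrogenase (log2 change 2.80), and Etfdh, Etfb and Etfa, which pass on electrons from fatty acid oxidation (1.87, 1.39 and 1.21). Aifm2 and Dhodh, at 0.31 and -0.41, were not called. Nnt, which makes NADPH from NADH and was listed with them, was not called either, at -1.69 with 54 to 129 scaled counts in cold and 88 to 659 in thermoneutral samples.

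Because the members rose together, their promoters were searched for short motifs of factors known to act on respiratory genes. RefSeq promoter sequence (GRCm38.p6, 250 bases before the start to 50 after it) was at hand for 32 of the 37 members. Ndufa2, Ndufa4l2, Ndufb9 and Ndufs1 were among those without an entry. Both strands were searched and only exact matches counted, matches of different motifs did not overlap in any member, and a match describes letters, not binding. The motif AAGATGGCG of YY1 was in 5 of 32 member promoters (15.6%), against 1.64% of all promoters. All promoters were counted whether or not a start codon lay in the window, so these shares are not matched for it. In all 5 members the motif lay on the strand of the gene, began 23 to 36 bases after the annotated start, and its ATG was the annotated start codon. The 5 windows are shown with the motif in capitals because of this shared position:
Ndufc1 (chr3:51408915-51408943, minus strand): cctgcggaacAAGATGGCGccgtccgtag
Ndufa9 (chr6:126849097-126849125, minus strand): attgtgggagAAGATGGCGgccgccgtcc
Ndufs7 (chr10:80249463-80249491, plus strand): ggccgaggccAAGATGGCGgcgctggcgg
Ndufs6 (chr13:73328433-73328459, minus strand): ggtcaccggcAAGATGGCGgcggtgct
Ndufs4 (chr13:114388045-114388069, minus strand): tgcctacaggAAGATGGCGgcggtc

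These 5 members changed by 0.97 to 1.57, inside the range of the others, and belong to the N module (Ndufs4, Ndufs6), the Q module (Ndufa9, Ndufs7) and the ND2 part (Ndufc1). Other motifs were rarer or closer to the background. The NRF1 motif CGCATGCG was in 2 of 32 (6.25%, against 2.07% of all promoters), the CRE TGACGTCA in 3 (9.38%, against 2.03%) and the core site AAGGTCA of the estrogen-related receptors in 3 (9.38%, against 5.38%). The ETS motif CCGGAAGT of GABP was in 1 (3.13%, against 4.31%) and the GC box GGGGCGGGG in 5 (15.6%, against 12.9%). The NRF1 and estrogen-related receptor windows, shown because the genes of these factors moved in opposite directions on the deposited scale, were:
Ndufa8, NRF1 (chr2:36049330-36049357, minus strand): tcgctggagaCGCATGCGcagatggtac
Ndufa11, NRF1 (chr17:56717693-56717720, plus strand): ctgcactgcgCGCATGCGcgcacgcctt
Ndufs5, core site in reverse (chr4:123718398-123718424, minus strand): ttctcgagtgTGACCTTgctcaagtag
Ndufb2, core site (chr6:39592374-39592400, plus strand): gagcagcagtAAGGTCAgccaagagca
Ndufb4, core site (chr16:37654407-37654433, minus strand): cctgagcctgAAGGTCAgactcgagag

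The genes of these factors did not move as a group. Esrra, the estrogen-related receptor that acts with PGC-1 coactivators on respiratory genes, had 2824, 2125 and 2195 scaled counts in cold and 1068, 1009 and 1011 in thermoneutral samples, a log2 change of 1.20 (SE 0.17, limma adjusted p = 0.0072). Esrrg and Esrrb, of the same receptor family, did not pass the filter on low values and were not tested. Esrrg had 63, 166 and 204 in cold and 16, 27 and 19 in thermoneutral samples. Esrrb had 24, 27 and 30 in cold and 13, 8 and 5 in thermoneutral samples. The coactivator genes Ppargc1a and Ppargc1b rose by 1.79 and 1.67, and by 1.00 and 1.24 when FPKM plus 1 was used in place of scaled counts. Nrf1 had 226, 257 and 228 in cold and 432, 403 and 393 in thermoneutral samples, a change of -0.78 (SE 0.15, limma adjusted p = 0.013).

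Yy1 was lower as well, at -0.72 (limma adjusted p = 0.023), and so was the coactivator gene Pprc1, at -0.85, while Gabpa was not called, at 0.31, and was called higher at 0.85 with median centring. The falls of Nrf1, Yy1 and Pprc1 are near the median of all tested genes, -0.54, and none of them was called when samples were centred on their median gene, where Nrf1 was at -0.25 and Yy1 at -0.18. Levels of these mRNAs say nothing here of the factors' binding at the members' promoters, which was not measured.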

How the data were processed

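RNA-seq libraries of 6 iWAT samples (TruSeq kit, NovaSeq instrument) were analysed from the deposited gene table. Its columns carry only an initial and a number, which were taken to stand for the sample titles. The RNA-seq methods describe removal of genes with low counts, TMM normalization and CPM and name no test there, while the study's general statistics section names one for comparing a pair of groups. Bowtie 0.12.2, mm8 and mm10 are named in the submitters' processing notes, with no role for either build. Whether counting used strand is not given in the sources used here, so reads of overlapping antisense genes cannot be told apart.

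The deposited count columns are a scaled signal rather than raw counts: 94.4% to 95.0% of the values below 20 were whole multiples of 1 step per sample, to within 0.02 of a step. The FPKM columns hold fragment values that the authors normalized to length and library size. As the counts were not raw, count models were not used.

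Scaled counts plus a pseudocount of 1 were compared on the log2 scale with limma (version 3.58.1, R version 4.3.3, without trend or robust options), over 11629 genes with Benjamini-Hochberg adjustment. Where a symbol had several rows (79 symbols), the row with the highest mean was used. The same fit was repeated after subtracting the per-sample median of the members. Alternatives covered scaling, FPKM, pseudocount, filter, the replicate block and samples left out; those leaving out 2 samples, the centring by length class and the centring on the members' mean were added after seeing the data. The same kind of limma fit was tried on simulated counts with known changes. These held neither the transcript length pattern nor the outlying samples seen here. Positions are those of GENCODE vM21 (GRCm38), and promoters those of RefSeq (GRCm38.p6).

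The members and all gene lists were chosen with earlier results of these data known. Every member is in the counts and medians, and the values of 1 member are not reported here. Per-sample values are given for the other core subunits, the 4 largest and 4 smallest changes, Ndufa4 and Ndufa4l2, members called relative to the complex I median, and the highest and lowest members by FPKM. Ndufa13, Ndufv3 and genes outside the set were given values after these had been seen. Python 3.11.15 with pandas 2.3.3 handled the tables.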

Additional observations from a re-analysis of the deposited data

How the results depend on the processing

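The rise of the complex I members held in direction throughout. Under the 16 alternatives 26 to 35 members were called higher, 26 of them under every one, and no member other than Ndufa4l2 changed sign. Leaving out 1 sample gave 26 to 31 members higher and a median log2 change of 1.11 to 1.38. Median centring gave a median of 1.84. Deviations of same-numbered samples from their group means had correlations of -0.004, 0.036 and 0.064, and those of differently numbered samples -0.057 to 0.011. With so few samples these values cannot decide whether the replicate numbers pair the samples. With replicate as a block 29 members were higher (the calls of Ndufa13, Ndufb2, Ndufb7 and Ndufv3 were lost) and 0 lower. In that setting 567 and 3139 of all tested genes were higher and lower. Without cold replicate 1 and thermoneutral replicate 1 together, 34 members were higher and 1 lower, and over all tested genes 1150 were higher and 6394 lower.

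Counts over all genes depended on scaling. Higher and lower calls were 1202 and 629 with median centring, 1083 and 704 with quantile normalization, and 1258 and 841 with centring by length class; lower calls were 2703 with no filter. Leaving out 1 sample gave 375 to 932 higher and 1067 to 5138 lower. Assembly factors called higher were 11 under both centring and quantile normalization.

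Relative to the complex I median, members called higher and lower were 1 and 2 with no filter, 8 and 8 with centring by length class, 11 and 6 without cold replicate 1 and thermoneutral replicate 1, and 0 and 2 without cold replicate 2 and thermoneutral replicate 1. Leaving out 1 sample gave 0 to 7 higher and 1 to 3 lower. These counts stand without the share of all tested genes in the same settings, and describe the members' own calls only. The cause was not tested.

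The log2 difference of Ndufa4l2, -0.03 as reported, was 0.51 with median centring, 0.58 with quantile normalization and 0.11 with centring by length class, -0.34 to 0.14 when 1 sample was left out, and -0.58 without cold replicate 1 and thermoneutral replicate 1. A test on raw counts, planned in case they were deposited, was not run because the counts had been scaled. The members' squared differences (median) were 2.11 times what counting alone gives between cold replicates 2 and 3, and 6.73 to 918 times in the other pairs of a group, so counting error is a sizeable share of the first spread and a smaller one of the rest.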

Other observations

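The mRNA of the mitochondrially encoded subunits and that of the nuclear members took opposite positions within the cold group. The 7 mitochondrial genes together made up 4.02% of the scaled counts of cold replicate 1, against 6.81% and 6.87% in cold replicates 2 and 3, and 1.66%, 1.70% and 1.95% in the thermoneutral samples. In cold these sums hold mt-Nd1 and mt-Nd2 only, and in thermoneutral samples mt-Nd5 and mt-Nd6 as well, since the other genes are listed at 0. Such zeros can be failed estimates, which was not tested. The nuclear members made up 1.67%, 1.16% and 1.15% in the cold samples. The zeros listed for mt-Nd5 and mt-Nd6 in all cold samples, beside 65045, 58004 and 71540 scaled counts of mt-Nd5 in the thermoneutral samples, were not examined further.

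Cold replicates 2 and 3 were close (median absolute difference of the members 0.03 on the log2 scale), as were thermoneutral replicates 2 and 3 (0.07), while replicate 1 of each group stood apart from both (0.59 and 0.61 in cold, 0.22 and 0.21 in thermoneutral samples). For the members, cold replicates 2 and 3 differed by 2.11 times the squared deviation that counting alone gives (median), and over all tested genes by 5.43 times.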
